A study of Mus musculus with 8 samples.

Results

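The 42 genes described here encode proteins of the lysosome: 12 peptidases, 11 glycosidases, 4 sulfatases, 6 lipid enzymes or lipid carriers, 6 membrane proteins, progranulin, and 2 transcription factors that regulate lysosomal genes. They were chosen by gene symbol from a list of lysosomal hydrolases, membrane proteins and regulators. All 42 were found among the 55401 genes of the count table, and 41 had enough counts to be tested. RNA was sequenced from R1, a mouse embryonic stem cell (ESC) line, in 8 poly(A)-selected libraries. The 4 groups of 2 libraries were control ESCs (labelled WT), ESCs with a knockout of Zfp462, a zinc finger gene, and embryoid bodies (EBs) of each genotype on day 3. ESCs grew on gelatin in serum medium with leukaemia inhibitory factor, a cytokine that maintains them, and EBs were aggregates grown from single-cell suspensions of ESCs in Petri dishes. The knockout cells came from stable lines, and the labels give neither the number of clones nor the origin of the controls, nor whether a group's libraries derive from separate cultures. The spread behind the p-values is therefore that between these samples alone, and it may be technical.

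Lysosomes are acidic organelles in which hydrolases degrade material that arrives by endocytosis and autophagy. Most soluble hydrolases receive a mannose phosphate tag in the Golgi and are sorted to the lysosome by receptors for it, and the V-ATPase pumps the protons that keep the lumen acidic. Transcription factors of the MiT-TFE family, TFEB, TFE3, MITF and TFEC, bind a motif near many lysosomal genes and are held in the cytoplasm by the kinase complex mTORC1 when nutrients are plentiful. The visceral endoderm, an outer layer of the early mouse embryo, takes up maternal proteins through the receptors cubilin and megalin and degrades them in large lysosomes.

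Library totals ranged from 12119763 to 16228426 counts. Zfp462 RNA was lower in each of the 4 knockout libraries (102.0 to 106.6 CPM: counts scaled to a common library size and composition) than in any control library (130.3 to 196.9 CPM), and remained well detected; the labels do not give the edited position, so these levels do not show what is left of the protein. The pluripotency genes Pou5f1 (278.8 to 490.3 CPM), Sox2 (236.6 to 616.8 CPM) and Nanog (128.0 to 574.7 CPM) were detected in every library. The knockout ESC libraries differed from each other along GC content, and 1 EB library stood apart. Across genes, GC content correlated at 0.46 with the difference between the knockout ESC libraries, and at -0.0284 to -0.003 with that between the libraries of each other group; of the 11 members with a GC content of at least 55%, 9 stood higher in replicate 1 than in replicate 2, as did 12 of the other 30. Knockout EB replicate 1 held liver transcripts: the summed level of 20 adult liver genes was 2374 CPM there and 6.696 to 35.37 CPM elsewhere. Of the 41 members tested, 29 were lower in that library than in knockout EB replicate 2 and 12 were higher. The share of all genes lower in that library was not computed, so these counts have no baseline. In these bulk samples, fewer cells of a type and less RNA per cell cannot be told apart.

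The summed level of the 42 genes was 3543 and 3504 CPM in the control ESC libraries and 5390 and 5303 CPM in those of knockout ESCs. On day 3 it was 4405 and 4644 CPM in controls and 6003 and 6297 CPM in the knockout. The groups did not overlap, and the order rose from control ESCs through control EBs and knockout ESCs to knockout EBs. Knockout exceeded control 1.52-fold in ESCs and 1.36-fold in EBs. Without Ctsl and Lgmn, a pair of cysteine protease genes, the ratios were 1.26 and 1.22. The 12 peptidases accounted for most of the gap: their sum went from 1073 ± 0.195 CPM (mean ± SD, n = 2, as for the sums that follow) in control to 2521 ± 78.7 CPM in knockout ESCs, and from 1875 ± 97.2 to 3159 ± 154 CPM in EBs. The 11 glycosidases summed to 693.5 ± 15.3 and 717.4 ± 78.7 CPM in control and knockout ESCs, which overlapped, and to 635.6 ± 21.6 and 758.3 ± 17.2 CPM in control and knockout EBs.

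Per kilobase of deposited exon length, Lamp1 had the highest level of the 42 in control ESCs (162.8 RPKM, CPM per kilobase). This gene encodes the most abundant glycoprotein of the lysosomal membrane. Lgmn stood at 60.26 RPKM and Ctsl at 55.56 RPKM in control ESCs. Both lay nearer to Lamp1 in knockout ESCs, where Lamp1 was at 228.7, Lgmn at 197.1 and Ctsl at 164.3 RPKM. In knockout EBs Lgmn, at 269.1 RPKM, stood above Lamp1, at 248.6 RPKM, and Ctsl was at 191.8 RPKM. The length covers every annotated exon of a gene, used here or not. It was 2675 bases for Lamp1, 2323 for Lgmn and 6489 for Ctsl, so the order of genes depends on the annotation. By CPM, Ctsl stood above Lamp1 in knockout ESCs (means of 1066 and 611.8 CPM). Ctsl held 10.2% to 10.3% of the summed CPM of the 42 genes in control ESCs and 19.0% to 20.9% in knockout ESCs. At the other end, Ctss, a cathepsin of immune cells, had 0 to 7 counts in a library and was not tested, and Ctso and Arsb stayed under 1 RPKM in every group.

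**Figure D1:**
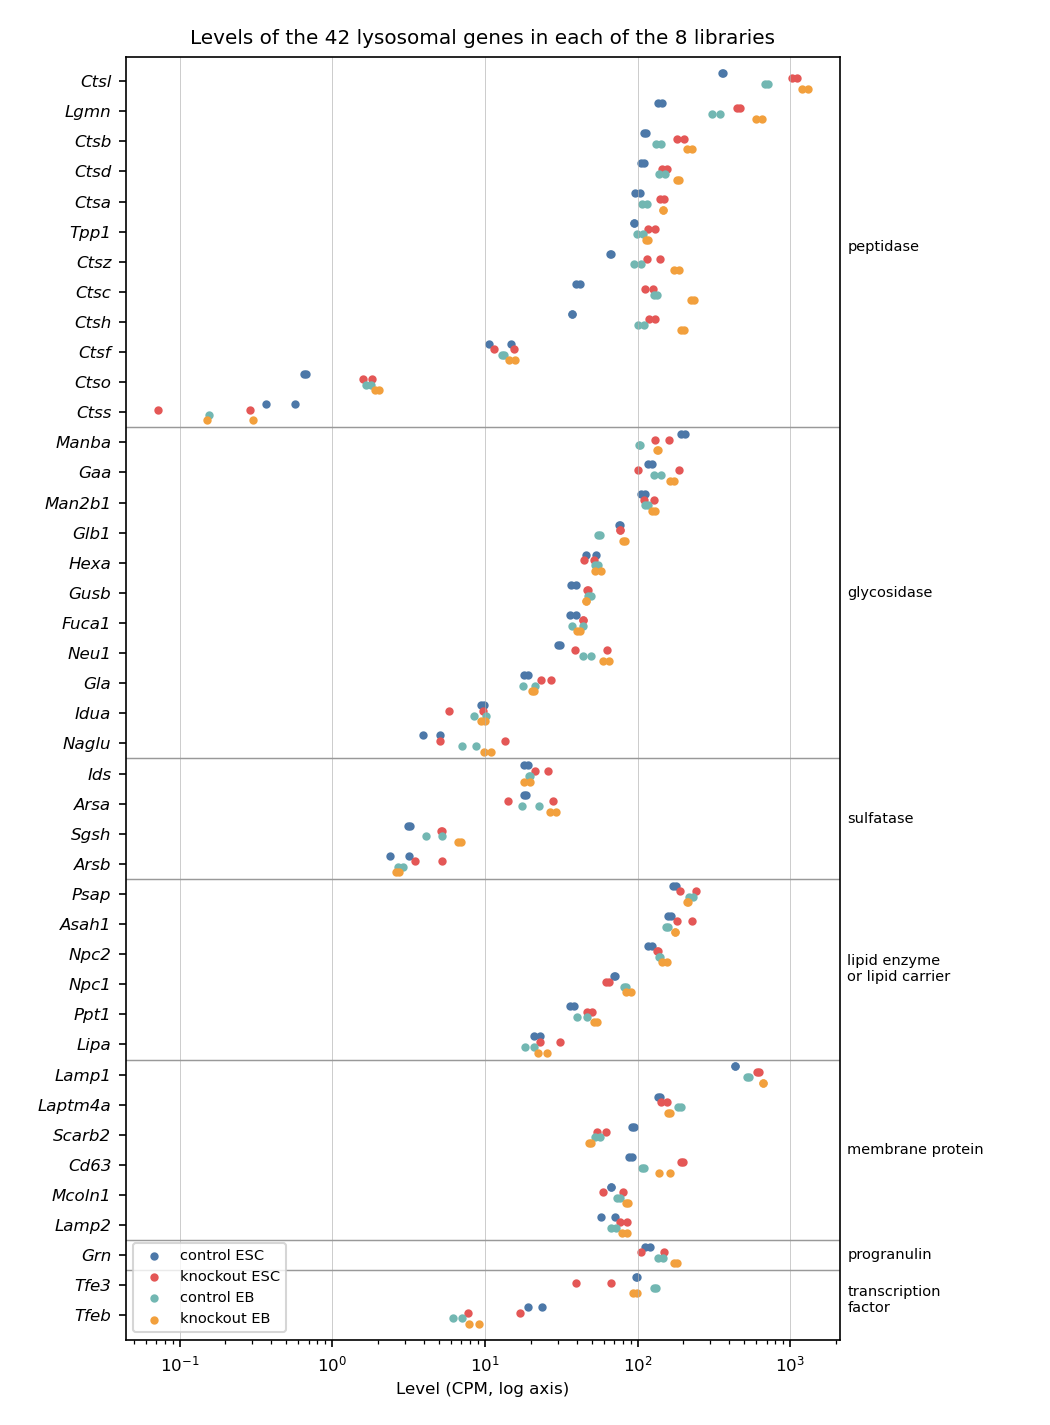
Level of each of the 42 genes in each of the 8 libraries, in CPM on a log axis, grouped by role; each point is 1 library and a library with 0 counts is not drawn (Ctss in control EB replicate 1). Lamp1 and Ctsl lie at the right, and the groups separate most clearly among the peptidases Ctsl, Lgmn, Ctsc and Ctsh.

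Promoter stretches of selected members are shown because the MiT-TFE factors bind sequences built on CACGTG, a palindrome that reads the same on both strands. They are not a sample of the called genes. RefSeq windows from 250 bases before to 50 after the start (build GRCm38.p6) were matched for 38 of the 42 genes; Ctsb, Ctsh, Npc1 and Asah1 had none. CACGTG was present for 13 of the 38 (34.2%), against 2187 of 27025 genes (8.09%). The longer TCACGTGA, which contains it, was present for 4 of the 38 (10.5%) and for 1.12% of all genes. Of the 11 members with a window that were higher in knockout ESCs by the test below, 5 held CACGTG (45.5%), as did 8 of the other 27 (29.6%). Median GC content was 56.3% in member windows and 52.7% in all windows. A match is a description of the letters and does not show that a factor binds. The stretches below are 100 bases each, 5′ to 3′ on the strand of the gene, with CACGTG in capitals. Lamp1 (chr8:13159061-13159160, plus strand) held 4 copies within 100 bases of the start, the most of any member. Mcoln1, the calcium channel of the lysosome, held 2 (chr8:3500419-3500518, plus strand). It was called in none of the contrasts below. Ctsd (chr7:142387838-142387937, minus strand), Lgmn (chr12:102439093-102439192, minus strand) and Ctsl (chr13:64370671-64370770, minus strand) each show 1 copy here. Lgmn had 2 windows, and the window with CACGTG is shown. The stretches of Ctsd, Lgmn and Ctsl, and part of that of Mcoln1, lie downstream of the first exon base of their genes. Ctsc (chr7:88277985-88278084, plus strand), which rose as much as Ctsl, has none in its window. Among members called in knockout ESCs but not shown, Ctsa held CACGTG. Ctsz, Tpp1, Neu1, Ppt1, Cd63, Manba, Scarb2 and Tfe3 had none in their windows.
Lamp1: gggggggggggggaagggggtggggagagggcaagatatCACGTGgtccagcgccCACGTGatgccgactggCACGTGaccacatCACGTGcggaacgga
Mcoln1: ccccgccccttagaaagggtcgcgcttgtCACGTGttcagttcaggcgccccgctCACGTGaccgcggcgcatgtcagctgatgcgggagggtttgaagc
Ctsd: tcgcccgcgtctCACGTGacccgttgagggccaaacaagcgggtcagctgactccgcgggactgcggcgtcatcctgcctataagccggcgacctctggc
Lgmn: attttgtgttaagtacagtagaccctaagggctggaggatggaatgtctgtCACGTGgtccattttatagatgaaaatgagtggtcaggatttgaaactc
Ctsl: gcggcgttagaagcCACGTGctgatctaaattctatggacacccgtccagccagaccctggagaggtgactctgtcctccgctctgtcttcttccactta
Ctsc: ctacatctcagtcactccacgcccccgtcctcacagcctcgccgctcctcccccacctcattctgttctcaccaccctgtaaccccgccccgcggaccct

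The first comparison asked how the lysosomal genes differed between knockout and control ESCs. In knockout ESCs 13 of the 41 genes tested rose, 3 fell and 25 did not pass the test (edgeR's quasi-likelihood test, adjusted over all 17125 genes, called below 0.05). Over all genes tested, 8.3% were called higher and 6.2% lower. The median log2 difference was 0.32 over the members and -0.03 over all genes. Among members with a mean of at least 10 CPM, 13 of 36 rose, beside 8.74% of all genes at that level (8.75% fell). The peptidases supplied 9 of the 13, out of 11 tested, with a median of 0.94. Outside the peptidases 4 of 30 rose and 3 fell, with a median of 0.23. Both knockout libraries lay above both control libraries for 26 of the 42 genes and below for 6. The share of all genes separated in this way was not computed, so these counts have no baseline.

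Ctsl encodes cathepsin L, an endopeptidase of the papain family, and stood at 363.2 and 357.9 CPM in control ESCs and at 1024 and 1109 CPM in knockout ESCs. It was the largest rise in CPM among the 42 genes, with no overlap between the groups, and a log2 difference of 1.56 ± 0.08 (estimate ± SE, adjusted p = 2.02e-06). Lgmn encodes legumain, an asparaginyl endopeptidase that also processes cathepsins. It stood at 135.5 and 144.5 CPM in control ESCs and at 450.0 and 465.5 CPM in knockout ESCs (1.71 ± 0.09, adjusted p = 3.56e-06). The exopeptidases Ctsh and Ctsc moved by similar factors from lower levels. Ctsh, an aminopeptidase, stood at 37.21 and 37.47 CPM in control and at 118.6 and 130.7 CPM in knockout ESCs (1.74 ± 0.10, adjusted p = 4.96e-06). Ctsc, a dipeptidyl peptidase that activates serine proteases of immune cells, stood at 39.57 and 41.71 CPM and at 112.7 and 127.2 CPM (1.56 ± 0.10, adjusted p = 8.75e-06). These 4 genes rose 2.95-fold to 3.34-fold and lie on 4 chromosomes (mm10): Ctsl on chromosome 13 from 64359337 to 64370890, Lgmn on chromosome 12 from 102394084 to 102439813, Ctsh on chromosome 9 from 90054152 to 90076089, and Ctsc on chromosome 7 from 88278085 to 88310888.

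The other cathepsins rose less. Ctsz, a carboxypeptidase, stood at 67.17 and 66.34 CPM in control and at 140.0 and 116.0 CPM in knockout ESCs (0.94 ± 0.11, adjusted p = 0.000376). Ctsb, which encodes the abundant cathepsin B, stood at 113.2 and 110.9 CPM and at 180.7 and 200.2 CPM (0.77 ± 0.09, adjusted p = 0.000481). Ctsd, the main aspartic protease of the lysosome, stood at 110.2 and 104.6 CPM and at 156.3 and 144.9 CPM (0.49 ± 0.09, adjusted p = 0.00585). For each of the 3 the groups did not overlap. Ctsa, the protective protein of the galactosidase and sialidase complex, and Tpp1, a tripeptidyl peptidase, had log2 differences of 0.53 ± 0.09 (adjusted p = 0.00332) and 0.39 ± 0.10 (adjusted p = 0.0214). Ctsf did not pass (0.09 ± 0.21, adjusted p = 0.836), nor did the sparsely counted Ctso (1.35 ± 0.42, adjusted p = 0.0565), which stood at 0.6514 and 0.6757 CPM in control and at 1.823 and 1.601 CPM in knockout ESCs. Exons of Ctsb overlap Fdft1 on the opposite strand over 12.8% of their bases and those of Ctsa overlap Pltp over 10.5%; with the strand setting of the counting not given in the sources used here, reads there cannot be told apart. Exons of Ctsl overlap Gm47123 on the opposite strand over 26.8% of their bases and Gm49230 on the same strand over 6.09%, and those of Ctsd overlap Gm49369 on the same strand over 34.4%. These 3 other genes had 0 counts in all libraries, and the effect of the overlaps on the levels of Ctsl and Ctsd was not tested.

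The glycosidases remove sugars from glycoproteins, glycolipids and glycosaminoglycans. Of the 11 tested, 9.09% were called higher and 9.09% lower, near the 8.3% and 6.2% of all genes. Neu1, the lysosomal sialidase, rose (0.73 ± 0.19, adjusted p = 0.0285), Manba, a beta-mannosidase, fell, and 9 of 11 did not pass. Manba stood at 205.6 and 191.8 CPM in control and at 129.5 and 161.5 CPM in knockout ESCs (-0.45 ± 0.11, adjusted p = 0.0207), so it went from the third highest CPM of the 42 genes in control ESCs to below Ctsb. Glb1, the beta-galactosidase, had means of 75.93 ± 1.21 and 76.89 ± 0.472 CPM (0.02 ± 0.09, adjusted p = 0.925). None of the 4 sulfatases passed, with differences from 0.19 (Arsa) to 0.70 (Sgsh). Of the 6 lipid enzymes and carriers, Ppt1, a thioesterase that removes palmitate from proteins, was called (0.39 ± 0.12, adjusted p = 0.0465). Asah1, Psap, Lipa, Npc2 and Npc1 were not, with differences from -0.16 to 0.32.

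Of the 6 membrane proteins 2 rose and 1 fell. Cd63, a tetraspanin of late endosomes and lysosomes, stood at 87.29 and 91.41 CPM in control and at 192.6 and 198.9 CPM in knockout ESCs, the largest log2 difference among members outside the peptidases that passed the test (1.13 ± 0.10, adjusted p = 6.92e-05). Lamp1 stood at 434.9 and 436.3 CPM and at 620.8 and 602.9 CPM (0.49 ± 0.07, adjusted p = 0.00104). Its relative Lamp2, which also serves chaperone-mediated autophagy, stood at 71.08 and 57.68 CPM and at 76.34 and 84.8 CPM and did not pass (0.33 ± 0.12, adjusted p = 0.102). Scarb2 encodes LIMP-2, an abundant membrane glycoprotein of the lysosome, and went the other way, from 92.58 and 94.91 CPM to 54.1 and 62.16 CPM (-0.69 ± 0.10, adjusted p = 0.00145). The directions among membrane proteins were thus mixed. Of Lamp1's exon bases 9.31% overlap Grtp1 on the opposite strand.

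Tfe3 was the third member that fell. It stood at 97.3 and 98.72 CPM in control ESCs and at 67.3 and 39.52 CPM in knockout ESCs (-0.88 ± 0.19, adjusted p = 0.011). Tfeb stood at 23.61 and 19.23 CPM and at 17.06 and 7.715 CPM and did not pass (-0.79 ± 0.30, adjusted p = 0.119; -0.62, adjusted p = 0.0285 after removal of the GC trend). Both genes were lower in knockout ESC replicate 2 than in replicate 1. The Tfeb difference was -1.48 (adjusted p = 0.000978) without replicate 1 and -0.33 (adjusted p = 0.312) without replicate 2, and that of Tfe3 was -1.32 and -0.55. Neither factor gene was called higher in knockout ESCs than in control ESCs.

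**Figure D2:**
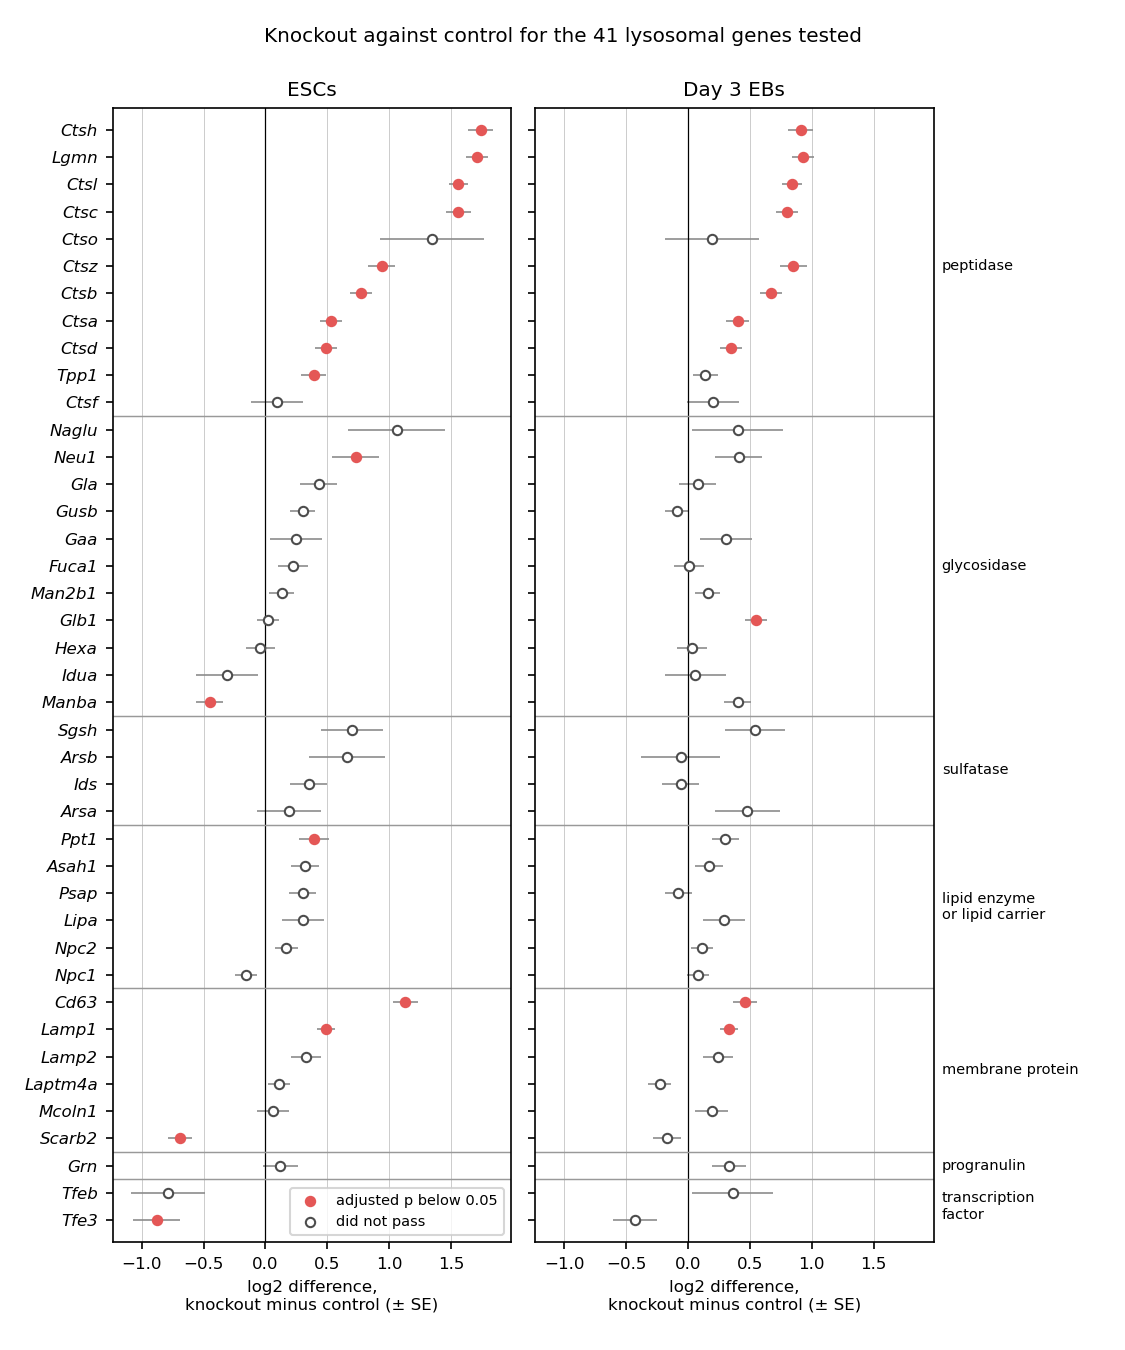
Log2 difference between knockout and control for the 41 genes tested, in ESCs (left) and day 3 EBs (right), ordered by role and by the ESC value; points are edgeR estimates, bars are 1 SE, and filled points passed an adjusted p of 0.05. The peptidases reach 1.74 in ESCs and 0.93 in EBs. Of the 41 ESC values, called or not, 34 lie above 0, beside 8019 of the 17125 genes tested.

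Ctsl, Lgmn, Ctsh, Ctsc, Ctsz, Ctsb, Lamp1, Cd63 and Scarb2 kept their ESC calls without any 1 of the 8 libraries. Leaving out a control ESC library lowered the numbers called, and leaving out a knockout ESC library raised the number called higher. The numbers called over all genes moved the same way, so these shifts are not read as a result about the members. Ctsa lost its call without control ESC replicate 1 (adjusted p = 0.0753), and Ctsd and Tfe3 without control ESC replicate 1 (0.0623 and 0.0972) or replicate 2 (0.114 and 0.119). Tpp1, Manba, Neu1 and Ppt1 lost theirs without either control ESC library and without some others, with adjusted p reaching 0.187, 0.18, 0.24 and 0.281. With the GC trend removed 21 rose and 4 fell. Over all genes, 1901 of 17109 were then called higher and 2149 lower, against 1421 and 1062 of 17125 in the main fit. Ctsl (1.51), Lgmn (1.69), Ctsh (1.69) and Ctsc (1.53) differed little from the values above.

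The second comparison asked the same of day 3 EBs. In knockout EBs 11 of 41 genes were higher than in control EBs, 0 were lower and 30 did not pass, beside 4.75% of all genes called higher and 2.04% called lower. The median was 0.29 over the members and 0.00 over all genes. Again the peptidases held most of the calls, with 8 of 11 higher and a median of 0.67. Of the members, 10 were called in both stages: Ctsa, Ctsb, Ctsc, Ctsd, Ctsh, Ctsl, Ctsz, Lgmn, Cd63 and Lamp1. Control and knockout EBs did not overlap for 34 of the 42 genes, with both knockout libraries above for 29 and below for 5. These counts too lack the share of all genes beside them, and 11 members passed the test.

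Ctsl stood at 684.5 and 711.1 CPM in control EBs and at 1191 and 1299 CPM in knockout EBs (0.84 ± 0.08, adjusted p = 0.000197). Lgmn stood at 306.5 and 349.5 CPM and at 596.1 and 654.2 CPM (0.93 ± 0.09, adjusted p = 0.000304). Knockout EBs thus held the highest levels of either gene in the study. Ctsh stood at 100.1 and 110.3 CPM and at 192.8 and 201.9 CPM (0.91 ± 0.10, adjusted p = 0.000415), and Ctsc at 128.2 and 134.2 CPM and at 222.5 and 234.9 CPM (0.80 ± 0.09, adjusted p = 0.000836). Ctsz stood at 94.88 and 105.4 CPM and at 173.7 and 186.0 CPM (0.85 ± 0.11, adjusted p = 0.00147). Each of the 5 genes was lower in knockout EB replicate 1, the library with liver transcripts, than in replicate 2. Without replicate 1 the log2 differences were 0.90 for Ctsl, 1.00 for Lgmn, 0.95 for Ctsh, 0.85 for Ctsc and 0.90 for Ctsz.

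Ctsb stood at 131.9 and 143.1 CPM in control EBs and at 210.6 and 227.7 CPM in knockout EBs (0.67 ± 0.09, adjusted p = 0.00229). Ctsd stood at 138.0 and 151.6 CPM and at 181.6 and 188.0 CPM (0.35 ± 0.09, adjusted p = 0.0473). Lamp1 stood at 517.7 and 538.5 CPM and at 668.2 and 661.9 CPM (0.33 ± 0.07, adjusted p = 0.0188). The groups did not overlap for any of the 3 genes, and Ctsb had the largest difference of them. Cd63 stood at 110.5 and 107.4 CPM and at 137.9 and 162.8 CPM (0.46 ± 0.10, adjusted p = 0.0216). Lamp2 stood at 66.84 and 71.76 CPM and at 85.25 and 78.53 CPM and did not pass (0.24 ± 0.12, adjusted p = 0.281).

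Glb1 was the member called in EBs but not in ESCs. In EBs its mean was 55.94 ± 0.693 CPM in controls against 81.63 ± 1.60 CPM in the knockout (SD, n = 2; 0.55 ± 0.09, adjusted p = 0.00545). The knockout EB level lay near the 75.93 CPM of control ESCs. Over 5.49% of its bases Glb1 overlaps Tmppe on the same strand. Manba, lower in knockout ESCs, stood at 102.2 and 103.5 CPM in control EBs and at 136.2 and 135.1 CPM in knockout EBs; the groups did not overlap, but the difference did not pass (0.40 ± 0.11, adjusted p = 0.0588). Scarb2 stood at 52.51 and 56.7 CPM and at 47.82 and 49.23 CPM and did not pass (-0.17 ± 0.11, adjusted p = 0.403). Tfe3 stood at 127.4 and 132.4 CPM and at 93.98 and 98.92 CPM and did not pass either (-0.43 ± 0.18, adjusted p = 0.205), and Tfeb was at 7.095 and 6.195 CPM and at 7.832 and 9.207 CPM (0.36 ± 0.33, adjusted p = 0.592).

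Ctsl, Lgmn, Ctsh and Ctsc kept their EB calls without any 1 library, and Ctsb and Ctsz lost theirs only without control EB replicate 1 (adjusted p = 0.0674 and 0.0587). The number called higher rose when a knockout ESC library was left out and fell when any other library was left out. The number called higher over all genes moved the same way, so these shifts are not read as a result about the members. Glb1 lost its call without control EB replicate 1 (0.0782), its partner (0.0647) or knockout EB replicate 1 (0.0803), and Ctsa, Ctsd, Lamp1 and Cd63 lost theirs in 5 or 6 of the 8 such fits (adjusted p up to 0.234, 0.342, 0.19 and 0.228).

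**Figure D3:**
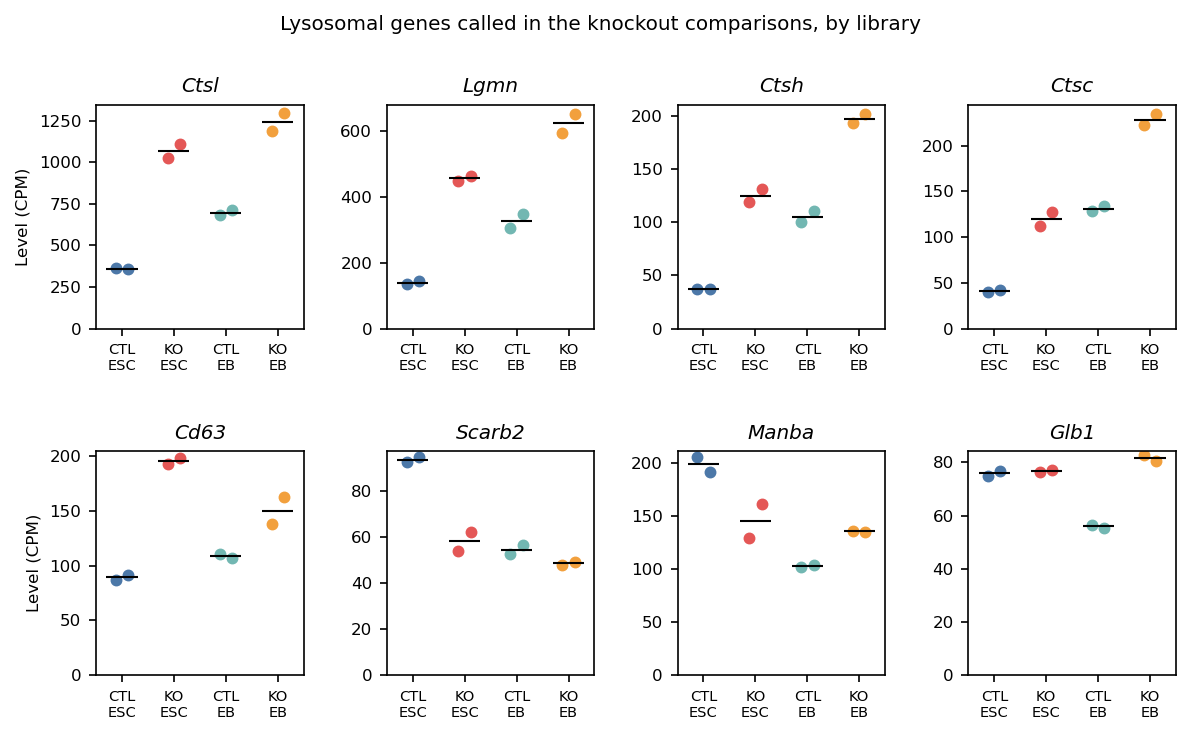
Level of 8 genes in each library, in CPM on linear axes from 0, for control (CTL) and knockout (KO) ESCs and day 3 EBs; points are libraries and lines are group means (n = 2). Ctsl, Lgmn, Ctsh and Ctsc are lowest in control ESCs and highest in knockout EBs, whereas Scarb2 is highest in control ESCs and Glb1 is lowest in control EBs.

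The third comparison described what 3 days of EB culture did to these genes in each genotype. In control cells 10 of 41 genes were higher in EBs than in ESCs, 4 were lower and 27 did not pass, beside 8.6% and 9.63% of all genes. The 10 were Ctsc (1.69 ± 0.10, adjusted p = 4.3e-06), Ctsh (1.49 ± 0.10, adjusted p = 8.32e-06), Ctso (1.37 ± 0.42, adjusted p = 0.0459), Lgmn (1.23 ± 0.09, adjusted p = 1.51e-05), Ctsl (0.95 ± 0.08, adjusted p = 2.05e-05), Ctsz, Laptm4a, Ctsd, Gusb and Lamp1. Ctso stood at 1.658 and 1.804 CPM in control EBs and at 2.033 and 1.902 CPM in knockout EBs, so its levels were low throughout. Laptm4a, which encodes a small membrane protein of late endosomes, was higher by 0.44 ± 0.09 (adjusted p = 0.00728). The 4 that were lower were Tfeb (-1.68 ± 0.32, adjusted p = 0.00517), Manba (-0.95 ± 0.11, adjusted p = 0.000288), Scarb2 (-0.78 ± 0.10, adjusted p = 0.000692) and Glb1 (-0.44 ± 0.09, adjusted p = 0.00723). This comparison and the ESC knockout comparison share the control ESC libraries, so their values are given side by side and no agreement between them is counted. For Ctsl, 0.95 stands beside 1.56, for Lgmn 1.23 beside 1.71, for Ctsh 1.49 beside 1.74, for Ctsc 1.69 beside 1.56, for Scarb2 -0.78 beside -0.69 and for Manba -0.95 beside -0.45.

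In knockout cells 7 of 41 genes were higher in EBs than in ESCs, 1 was lower and 33 did not pass, beside 8.23% and 7.11% of all genes. Ctsc (0.93 ± 0.10, adjusted p = 0.000182), Tfe3 (0.85 ± 0.19, adjusted p = 0.0139), Ctsh (0.66 ± 0.09, adjusted p = 0.00144), Ctsz (0.49 ± 0.11, adjusted p = 0.0147), Grn (0.48 ± 0.14, adjusted p = 0.0448), Lgmn (0.45 ± 0.09, adjusted p = 0.00889) and Npc1 (0.45 ± 0.09, adjusted p = 0.00967) were higher. Grn encodes progranulin, a secreted glycoprotein that is cleaved in the lysosome, and stood at 149.2 and 104.9 CPM in knockout ESCs and at 173.7 and 181.3 CPM in knockout EBs. In controls it stood at 120.9 and 112.4 CPM in ESCs and at 136.9 and 146.4 CPM in EBs. Cd63 was the member that fell (-0.38 ± 0.10, adjusted p = 0.0285). Ctsl did not pass in knockout cells (0.22 ± 0.07, adjusted p = 0.0689).

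Ctsc, Ctsh, Ctsl, Lgmn, Manba and Scarb2 in control cells and Ctsc and Ctsh in knockout cells kept their calls without any 1 library. In both genotypes the number called higher rose when a knockout ESC library was left out and fell when any other library was left out. The number called higher over all genes moved the same way, so these shifts are not read as a result about the members. The other calls were each lost without at least 1 library: in control cells Ctso (adjusted p up to 0.21), Gusb (0.272), Lamp1 (0.155), Ctsd (0.136), Laptm4a (0.109), Glb1 (0.0929), Ctsz (0.0887) and Tfeb (0.0736), and in knockout cells Cd63 (0.313), Grn (0.189), Npc1 (0.125), Ctsz (0.114), Lgmn (0.0932) and Tfe3 (0.0622).

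The knockout effect itself differed between the stages for 5 members, beside 0.742% of all genes with a higher and 0.642% with a lower effect in EBs. Lgmn (-0.78 ± 0.13, adjusted p = 0.0211), Ctsh (-0.83 ± 0.14, adjusted p = 0.0211), Ctsl (-0.73 ± 0.11, adjusted p = 0.0129) and Ctsc (-0.76 ± 0.14, adjusted p = 0.0288) had a smaller knockout effect in EBs than in ESCs. For all 4 the control level was higher in EBs than in ESCs. Manba went from lower in knockout ESCs to a positive difference in EBs (0.85 ± 0.16, adjusted p = 0.0296). All 5 calls were lost without either control ESC library (adjusted p from 0.161 to 0.229), either control EB library (0.0891 to 0.189) or knockout EB replicate 1 (0.103 to 0.194), and those of Ctsc, Ctsh and Manba also without knockout EB replicate 2 (0.0895, 0.0726 and 0.0854). The other 36 did not pass, and 18 of the 41 genes were called in none of the 5 contrasts. These were Arsa, Arsb, Asah1, Ctsf, Fuca1, Gaa, Gla, Hexa, Ids, Idua, Lamp2, Lipa, Man2b1, Mcoln1, Naglu, Npc2, Psap and Sgsh. They include all 4 sulfatases and 7 of the 11 glycosidases. How many of all genes were called in none of the 5 contrasts was not computed.

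Other genes of the pathway were read from lists chosen with earlier results of these data known. Their counts stand beside 8.3% of all genes called higher and 6.2% called lower in knockout ESCs, and 4.75% and 2.04% in knockout EBs. In ESCs, counts of 2 or 3 in lists of about 20 genes lie near those shares. Of 23 other hydrolases and cofactors tested, 3 rose and 0 fell in knockout ESCs, with a median of 0.08, and in EBs 2 were higher and 0 lower, with a median of 0.22. Man2b2, an alpha-mannosidase, rose by 1.22 ± 0.21 in knockout ESCs (adjusted p = 0.00349; 0.0672 and 0.0695 without control ESC replicate 1 and 2).

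Of 21 other membrane proteins tested, 3 rose and 0 fell in knockout ESCs and 0 passed in EBs. They were the cystine exporter Ctns (0.56 ± 0.11, adjusted p = 0.00618; 0.121 without control ESC replicate 2), the sialic acid exporter Slc17a5 (0.56 ± 0.14, adjusted p = 0.0227; 0.217 without control ESC replicate 1) and the cation channel Tpcn1 (0.62 ± 0.19, adjusted p = 0.0486; 0.306 without control ESC replicate 1). Of 17 V-ATPase subunits and accessory proteins tested, 5 rose and 0 fell in ESCs, with a median of 0.28, and 1 was higher in EBs, with a median of 0.27. Atp6v0a1, a subunit of the proton channel, had log2 differences of 0.99 ± 0.18 in ESCs (adjusted p = 0.00422; 0.079 and 0.0786 without control ESC replicate 1 and 2) and 0.69 ± 0.17 in EBs (adjusted p = 0.041; 0.359 without control EB replicate 1). Atp6ap1, an accessory subunit, rose by 0.60 ± 0.09 in ESCs (adjusted p = 0.00187; 0.0539 without control ESC replicate 1), and the catalytic sector subunits Atp6v1a and Atp6v1b2 by 0.37 ± 0.09 and 0.39 ± 0.10 (adjusted p = 0.0212 and 0.0217; up to 0.188 and 0.24 without 1 library). Their medians stand beside 0.94 in ESCs and 0.67 in EBs for the peptidases.

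Of 17 genes for mannose phosphate tagging and sorting, 3 rose and 2 fell in ESCs, with a median of 0.09, and 1 was higher in EBs. Igf2r, the large mannose phosphate receptor, was lower (log2 difference -0.40 ± 0.09, adjusted p = 0.0189; 0.186 without control ESC replicate 2) and Sort1, the alternative sorting receptor sortilin, was too (-0.55 ± 0.14, adjusted p = 0.0285; 0.185 without control ESC replicate 2). Gnptab, the enzyme that starts the tag, rose by 0.43 ± 0.11 (adjusted p = 0.0234; 0.222 without control ESC replicate 2), as did the adaptor gene Ap1g1 (0.38 ± 0.10, adjusted p = 0.0237; 0.204 without control ESC replicate 1). Of 20 autophagy genes, 2 rose and 2 fell in ESCs, and 3 were higher in EBs. Gabarapl2, which encodes a protein of the autophagosome membrane, was higher in both (0.98 ± 0.10 and 0.72 ± 0.10, adjusted p = 0.000151 and 0.00216) and kept the calls without any 1 library. The cargo receptor Sqstm1 (-0.37 ± 0.10, adjusted p = 0.0285) and the starting kinase Ulk1 (-0.77 ± 0.21, adjusted p = 0.0335) fell in ESCs, calls that were lost without control ESC replicate 2 (0.243 and 0.228).

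Of 21 regulators of the MiT-TFE factors and of mTORC1 on lysosomes, which include the remaining family members, 2 rose and 2 fell in knockout ESCs, and the counts were the same in EBs. Mitf, which encodes the melanocyte factor MITF, stood at 12.86 and 17.08 CPM in control and at 35.44 and 48.26 CPM in knockout ESCs (1.48 ± 0.22, adjusted p = 0.00141). In EBs it stood at 5.172 and 3.294 CPM in control and at 16.94 and 15.67 CPM in knockout (1.93 ± 0.25, adjusted p = 0.00147). Mitf was thus higher in knockout in both stages, although its level was lower in EBs than in ESCs. Tfec stood at 5.374 and 6.02 CPM in control and at 16.04 and 17.76 CPM in knockout ESCs (1.56 ± 0.18, adjusted p = 0.000361), and at 14.92 and 13.65 CPM in control and 25.3 and 31.96 CPM in knockout EBs (1.00 ± 0.17, adjusted p = 0.00663; up to 0.0753 without 1 EB library). Of the 4 family members, Mitf and Tfec were called higher and Tfe3 lower in knockout ESCs, and Tfeb did not pass.

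The Rag GTPases hold mTORC1 on the lysosome and bind TFEB and TFE3. Rragb stood at 27.85 and 28.5 CPM in control and at 9.26 and 10.34 CPM in knockout ESCs (-1.52 ± 0.13, adjusted p = 4.8e-05), and at 48.0 and 47.37 CPM in control and 24.32 and 23.44 CPM in knockout EBs, where its log2 level dropped by 1.00 ± 0.12 (adjusted p = 0.000884). It fell in both stages and kept both calls without any 1 library. Rragd stood at 24.51 and 23.04 CPM and at 14.36 and 17.4 CPM in ESCs (-0.58 ± 0.13, adjusted p = 0.0161; 0.132 without control ESC replicate 1), and at 64.91 and 72.15 CPM and at 43.53 and 41.17 CPM in EBs (-0.69 ± 0.12, adjusted p = 0.0084; 0.0908 without knockout EB replicate 2). The other 17 genes of the list, among them those of the Ragulator complex and mTORC1 itself, did not pass in either stage.

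**Figure D4:**
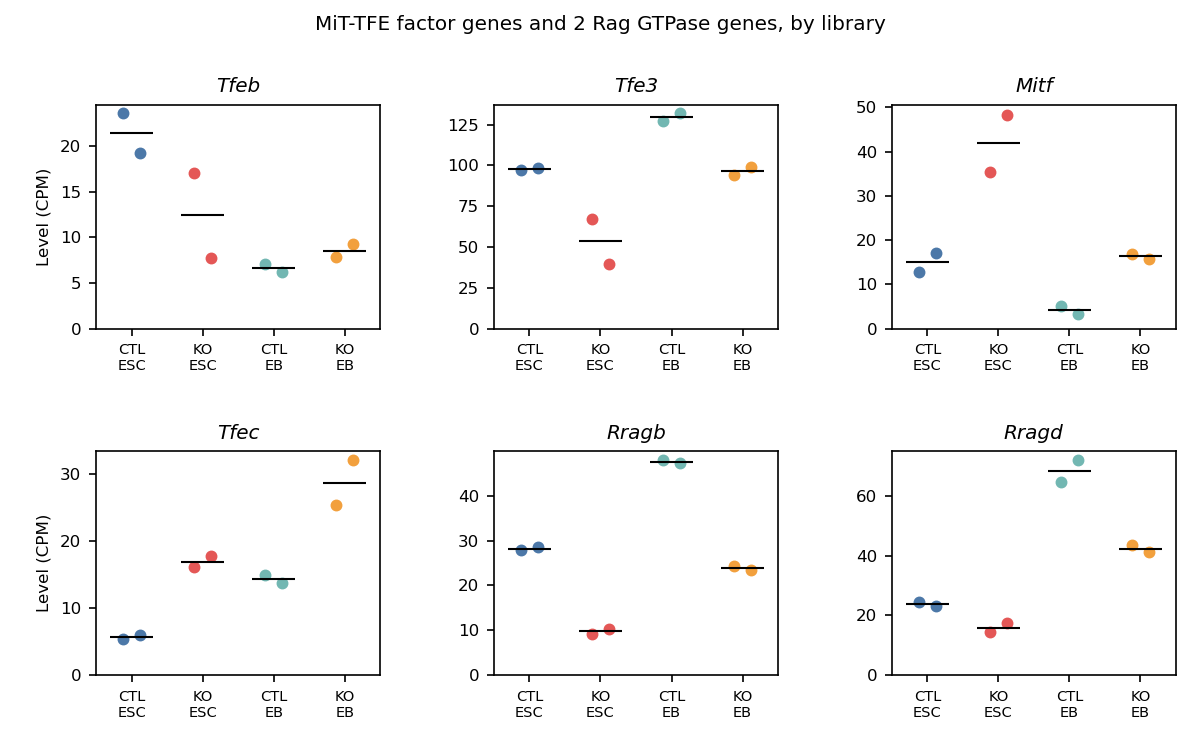
Level of the MiT-TFE factor genes Tfeb, Tfe3, Mitf and Tfec and of the Rag GTPase genes Rragb and Rragd in each library, in CPM on linear axes from 0; points are libraries and lines are group means (n = 2). Mitf and Tfec are higher and Rragb and Rragd lower in knockout (KO) than in control (CTL) at both stages.

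The endocytic receptors and adaptors of the visceral endoderm had the largest medians of these lists. This list too was chosen with earlier results of these data known, so its rank is a description only. Its genes Dab2, Cubn and Amn are also among the extraembryonic endoderm markers summed below. Of 6 tested, 5 rose in knockout ESCs, with a median of 1.94, and all 6 in knockout EBs, with a median of 1.07. Dab2, an adaptor for these receptors, ranged from 190.1 to 193.4 CPM in control and 803.6 to 831.1 CPM in knockout ESCs, and its difference was 2.09 ± 0.08 in ESCs (adjusted p = 7.92e-07) and 1.09 ± 0.08 in EBs (adjusted p = 6.16e-05). Cubn, which encodes cubilin, had differences of 2.33 ± 0.10 and 1.19 ± 0.10 (adjusted p = 7.92e-07 and 9.27e-05), and Lrp2, which encodes megalin, of 1.94 ± 0.10 and 0.96 ± 0.10 (adjusted p = 3.32e-06 and 0.000421). Amn, the membrane anchor of cubilin, had 1.95 ± 0.31 and 1.12 ± 0.27 (adjusted p = 0.00204 and 0.0368; 0.0564 without control ESC replicate 2 and 0.302 without control EB replicate 1), and its ESC difference was 1.23 without knockout ESC replicate 1 and 2.42 without replicate 2. The knockout effect was smaller in EBs for Dab2 (-1.01 ± 0.11, adjusted p = 0.00389), Cubn (-1.14 ± 0.13, adjusted p = 0.00573) and Lrp2 (-0.98 ± 0.14, adjusted p = 0.013), as it was for the 4 peptidases above. Without control ESC replicate 1 these adjusted p-values were 0.0983, 0.133 and 0.177.

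**Figure D5:**
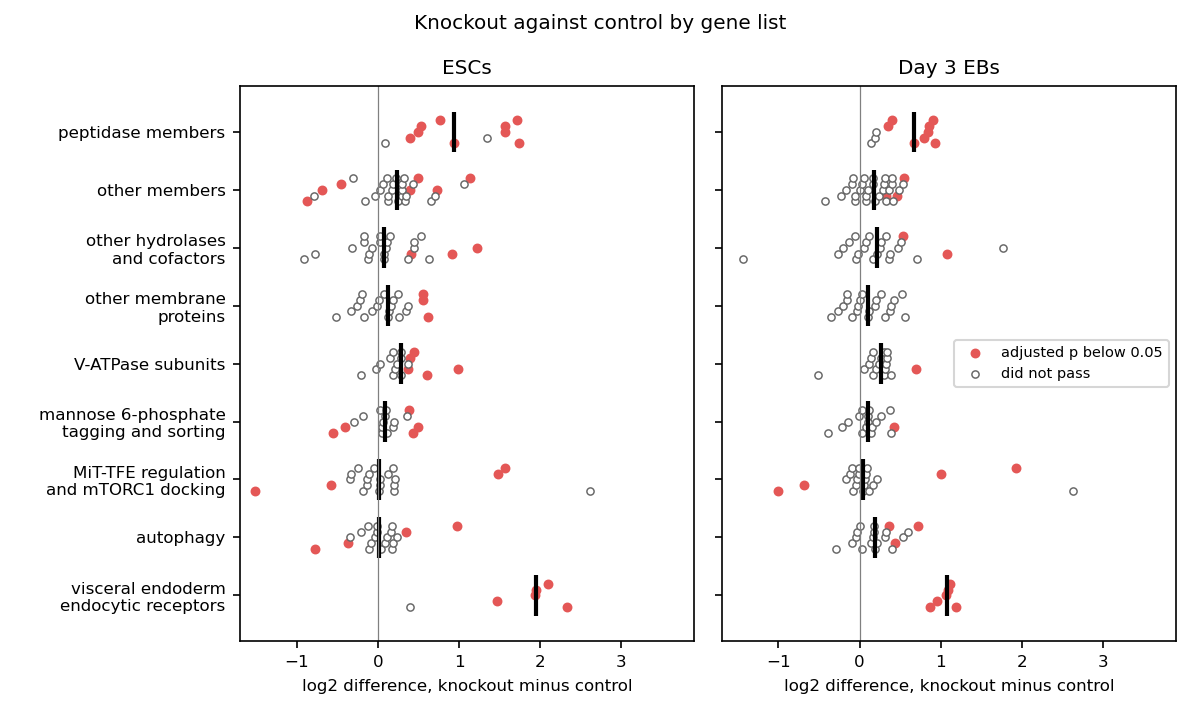
Log2 difference between knockout and control for each gene tested, by list, in ESCs (left) and day 3 EBs (right); each point is a gene, filled where the adjusted p was below 0.05, and bars mark list medians. Medians are 0.94 and 0.67 for the peptidase members, 1.94 and 1.07 for the endocytic receptors, and near 0 to 0.3 for the other lists.

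Markers of other cell types were summed in each library beside these results. The summed level of 18 extraembryonic endoderm markers was 4586 and 4778 CPM in the control ESC libraries and 18470 and 15300 CPM in those of knockout ESCs. In EBs it was 4858 and 5156 CPM in controls and 9360 and 10140 CPM in the knockout. Of the 18, 15 rose in knockout ESCs and 16 in knockout EBs. Ttr, Apoa1 and Rbp4 stood at 146.8, 112.2 and 46.69 CPM in knockout EB replicate 1, the library with liver transcripts. In replicate 2 they stood at 97.63, 41.09 and 17.27 CPM, and every other marker of the list was lower in replicate 1. The effect of the liver transcripts on these markers was not tested. The part of the endoderm marker change in the lysosomal result was not tested either. Macrophages, which are rich in lysosomes, left little trace: 12 markers summed to 24.86 to 35.23 CPM in every library, of which Cd68, itself a lysosomal gene, made up 22.9 to 32.41 CPM, and Adgre1 was at 0 in all. Fibroblast markers summed to 11.48 to 20.78 CPM. Trophoblast markers summed to 158.7 and 182.4 CPM in control and 261.3 and 260.6 CPM in knockout ESCs. In EBs they summed to 183.4 and 183.6 CPM in control and 220.7 and 242.0 CPM in knockout. Of the 7 tested, 3 rose and 1 fell in knockout ESCs, and 1 was higher in knockout EBs. Over all genes, 8.3% were called higher and 6.2% lower in knockout ESCs, and 4.75% higher in knockout EBs. The 8 cathepsins found only in rodent trophoblast reached at most 4 counts in a library, and 4 of them were at 0 in all 8.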

How the data were processed

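Poly(A)-selected RNA was sequenced in 8 libraries that form 4 groups of 2. The values the authors deposited are raw whole-number counts of reads per gene, per the file headers. HISAT2, featureCounts and DESeq2 are named for the mouse build mm10 in the submitters' processing notes, with versions and strand setting not given in the sources used here. Genes were kept by edgeR's filterByExpr (17125 of 55401) and scaled by TMM. edgeR's quasi-likelihood model had 1 mean for each group and used all 8 libraries (common biological coefficient of variation 0.132), with Benjamini-Hochberg adjustment over all genes. CPM and RPKM were computed from the deposited counts, RPKM with the deposited exon length. With 2 libraries a group, the spread is estimated over all 4 groups together. The work was done in R 4.3.3 with DESeq2 1.42.0, limma 3.58.1 and edgeR 4.0.16. The fit was tested on simulated data.

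The members and lists were chosen with earlier results of these data known. Values in every library are given for up to 5 members with the highest and 3 with the lowest log2 difference among those called per contrast, up to 4 called in the difference of effects, and Lamp1, Lamp2, Ctsb, Ctsd, Ctsl, Tfeb and Tfe3. From each other list up to 4 called genes with the smallest adjusted p per knockout contrast are named, and Dab2, Cubn, Lrp2 and Amn. Glb1 was described in full after its values were seen. Some genes of these lists are counted but not reported here by name. Alternatives were median-of-ratios factors, library totals, testing without the low-count filter or from a mean of 1 CPM up, a replicate block, fitting only the groups compared, DESeq2, a 2-fold minimum, the GC trend removed (a spline with 5 degrees of freedom) and each library left out.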

Additional observations from a re-analysis of the deposited data

Results flagged for a closer look

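For 5 members the knockout effect in EBs differed from that in ESCs by the test of the difference itself. On the log2 scale the difference was -0.73 for Ctsl, -0.78 for Lgmn, -0.83 for Ctsh and -0.76 for Ctsc, and 0.85 for Manba. In each of the 4 peptidases both stages had higher levels in knockout, and for Manba the ESC difference was negative and the EB difference, which did not pass by itself, positive.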

How the results depend on the processing

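Of 3444 member values under the alternatives, 3080 kept their direction and side of the threshold, 207 lost a call, 156 gained one and 1 reversed: Gaa, 0.25 and not called with all libraries, was -0.27 and called without knockout ESC replicate 1 and 0.62 without replicate 2. With the GC trend removed, 21 members were higher in knockout ESCs, 3 lower in knockout EBs, 16 higher in control EBs than ESCs, 2 lower in knockout EBs than ESCs, and 4 had a higher knockout effect in EBs. With only the groups compared, 1 was lower in knockout ESCs, 17 were higher and 2 lower in knockout EBs, 18 were higher in control EBs than ESCs, and 2 higher and 0 lower in knockout EBs than ESCs. With no low-count filter 1 was lower in knockout EBs and 2 had a higher effect in EBs. At 2-fold or more, 5 were higher and 0 lower in knockout ESCs, 0 higher in knockout EBs, 4 higher and 1 lower in control EBs than ESCs, 0 higher and 0 lower in knockout EBs than ESCs, and 0 and 0 differed in effect. Leaving out each library gave 8 to 19 higher and 1 to 6 lower in knockout ESCs, 4 to 18 and 0 to 2 in knockout EBs, 4 to 19 and 2 to 4 in control EBs against ESCs, 2 to 17 and 0 to 5 in knockout EBs against ESCs, and 0 to 9 and 0 to 7 for the difference of effects; each lone library was taken to vary like the others. With the replicate number as a block the counts were 12 and 3 in knockout ESCs, 10 and 0 in knockout EBs, 8 and 4 and 7 and 1 for EBs against ESCs in control and knockout, and 1 and 4 for the difference of effects. The numbers do not pair the samples: the correlation of same-numbered deviations lay between -0.0886 and 0.0227. By DESeq2 the counts were 13 and 3 in knockout ESCs and 12 and 0 in knockout EBs. The share of members with CACGTG was 34.2% with or without the bases after the start. The numbers called over all genes moved between these fits too, so the shifts in member counts are not read as a result about the members. The cause of these shifts was not tested. Depth limits Ctss, and Ctso in control ESCs, where levels were under 1 CPM.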
